A study of Homo sapiens with 6 samples.

Results

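The core circadian clock genes are the small set of transcription factors and repressors that form the daily feedback loop of most human cells. The 10 genes are PER1, PER2, PER3, CRY1, CRY2, CLOCK, ARNTL (also called BMAL1), NR1D1, NR1D2 and DBP. They were taken by name from the 26902 gene rows of the deposited table, with earlier results of these data known. All 10 passed the filter on low values (1 TPM or more in 3 or more libraries), as did 13266 genes in all. RNA came from HMCB, a human melanoma cell line whose genotype the labels give as NRAS Q61K, a change that both groups carry. One group of 3 libraries received a control siRNA (siNC) and the other group of 3 an siRNA against AHCYL1 (siAHCYL1), and RNA was taken 3 days after transfection. The series asks how AHCYL1 promotes proliferation of NRAS-mutant melanoma cells. AHCYL1 is a protein related to S-adenosylhomocysteine hydrolase that binds the IP3 receptors of the endoplasmic reticulum. The design is 1 cell line at 1 time point, and the labels name neither a second AHCYL1 siRNA, nor a rescue, nor a step that sets the cells to a common clock phase. A value is therefore a level at that time and no rhythm. In RNA from bulk cultures, fewer cells that express a gene and less RNA per cell cannot be told apart. No label says whether the replicates, called biological, were grown as separate cultures. The p-values thus measure sample-to-sample spread only, some of which may be technical.

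In the clock, the proteins CLOCK and ARNTL pair and bind E-box elements in DNA, where they switch on the PER and CRY genes, the NR1D genes and DBP. PER and CRY proteins then repress CLOCK and ARNTL, which closes the main loop. In a second loop, the nuclear receptors NR1D1 and NR1D2 (REV-ERB alpha and beta) repress ARNTL through elements that they share with the ROR receptors, which activate it, and DBP acts on D-box elements. PER1 is also known as an early target of cyclic AMP and CREB signalling and of glucocorticoids.

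The siRNA target was low in every library that received the siRNA against it. AHCYL1 stood at 150.02, 134.05 and 131.09 TPM in siNC and at 13.45, 11.13 and 10.97 TPM in siAHCYL1, which is 8.56% of the control mean (log2 fold change -3.44, limma adjusted p = 5.64e-08; exact permutation p = 0.1, two-sided, the smallest that 3 libraries against 3 allow). TPM is a level per transcript length, scaled to the same sum in each library, so levels may be compared between genes but the sequencing depth is unknown. The groups were apart on the first principal component (75.6% of the variance). On the second (9.78%), replicate 1 of each group lay at the same end (15.04 and 17.57, against -14.52 to -1.23 for the other 4 libraries). Of the clock genes, 5 (PER2, PER3, CLOCK, ARNTL and NR1D2) had their highest value in replicate 1 of both groups, as did 33.2% of all genes tested. Of 10 melanoma and melanocyte markers, 8 were tested, of which 5 were higher and 1 was lower in siAHCYL1 (75% called, against 51.6% of all genes), with summed levels of 1191 to 1235 TPM in siNC and 1325 to 1384 TPM in siAHCYL1. SOX10, a neural crest factor, stood at 1037 ± 12.3 and 1009 ± 16.9 TPM (SD, n = 3) and MITF, the melanocyte factor, at 10.99 ± 1.46 and 9.72 ± 1.42 TPM, while TYR was listed at 0 in all 6 libraries and MLANA stayed under 1 TPM. DCT fell (log2 fold change -3.23) and S100B (1.35), MIA (0.99) and CSPG4 (1.22) rose. TYRP1 also rose, from 1.59 ± 0.48 to 3.76 ± 1.18 TPM (0.87, limma adjusted p = 0.00897). So did PMEL, from 0.88 ± 0.60 to 1.83 ± 0.17 TPM (0.64, limma adjusted p = 0.0484). DCT, at 0.24, 0.15 and 0.62 TPM in siAHCYL1, passed the filter on low values through the siNC libraries alone. PMEL, at 1.53, 0.76 and 0.34 TPM in siNC, passed it only with the siAHCYL1 libraries, where it was higher. Most markers of other cell types stayed under the filter. In each of their lists, all the tested markers were called (100%, against 51.6% of all genes). Of these markers, COL1A1 passed the filter through the siNC libraries alone (0.68, 0.21 and 0.59 TPM in siAHCYL1). KRT8, at 0.47, 1.54 and 0.60 TPM in siNC, passed it only with the siAHCYL1 libraries, where it was higher. Those of fibroblasts (2 of 8 tested, LUM higher and COL1A1 lower) summed to 15.4 to 17.9 TPM in siNC and 26.1 to 32.4 TPM in siAHCYL1, with PDGFRA, THY1 and FAP at 0 in every library. Those of epithelium (3 of 8 tested, KRT8 higher, KRT18 and CLDN4 lower) summed to 35.8 to 46.4 and 29.6 to 33.5 TPM, with CDH1, KRT5 and KRT19 at 0. Those of immune and blood cells (3 of 8 tested, PTPRC and LCP1 higher, HBA1 lower) summed to 52.8 to 72.3 and 110 to 133 TPM, with CD3E and HBB at 0. Those of endothelium (2 of 6 tested, KDR and EGFL7 lower) summed to 56.6 to 70.9 and 34.3 to 38.5 TPM, with VWF at 0. The part of these sums in the clock values was not tested.

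Short stretches of promoter show which elements of the loop lie beside the genes described here. The sequences are RefSeq's for GRCh38.p14, whose table holds 250 bases before and 50 after each transcript start and matched all 10 genes with 15 starts. Each stretch is 30 bases on the gene's own strand, with the element in capitals. They are the 3 exact E-boxes found, the ROR element core of ARNTL, and, for comparison with PER1, 1 element each from PER2 and PER3.
PER1, E-box, chr17:8152560-8152589, minus strand: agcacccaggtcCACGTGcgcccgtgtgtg
NR1D2, first E-box, chr3:23945954-23945983, plus strand: ggcgggcggggaCACGTGaggccgctcggc
NR1D2, second E-box, chr3:23946004-23946033, plus strand: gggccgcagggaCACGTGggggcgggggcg
ARNTL, ROR element core, chr11:13277809-13277838, plus strand: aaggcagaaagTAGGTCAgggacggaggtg
PER2, variant E-box, chr2:238288790-238288819, minus strand: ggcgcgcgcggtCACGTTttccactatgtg
PER3, D-box, chr1:7784103-7784132, plus strand: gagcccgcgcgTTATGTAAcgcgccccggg

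The E-box CACGTG, which reads the same on both strands, lies in the promoters of 2 of the 10 genes, PER1 and NR1D2, and in 7.26% of all 35116 promoters of that table. In PER1 it spans bases -173 to -168, counted with the transcript start as 1 and no 0. The variant E-box CACGTT, searched on both strands, lies in 5 genes (PER2, CRY1, CRY2, CLOCK and NR1D1) and in 5.34% of all promoters. The ROR element core TAGGTCA lies in ARNTL, at bases 31 to 37, and in CRY2, and in 1.85% of all promoters. The D-box TTATGTAA lies in PER3 and, on the other strand, in NR1D2, and in 0.886% of all promoters, and its form TTACGTAA lies in PER2 and in 0.125%. The full cyclic AMP response element TGACGTCA was in no window of the 10 genes and in 1.85% of all promoters. The shorter TGACG, which is part of that element, was in 5 genes and in 24.6% of all promoters. These are matches of letters in short windows. The percentages count promoter windows, while some of the 10 genes have 2 windows. Of the 15 windows of the 10 genes, 2 held CACGTG, 5 held CACGTT and 2 held TAGGTCA. TTATGTAA lay in 2 of the 15 windows, TTACGTAA in 1 and TGACG in 7. Of the 2 genes with an exact E-box, PER1 fell and NR1D2 rose.

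Of the 10 core clock genes, 2 fell (PER1 and ARNTL), 2 rose (CLOCK and NR1D2) and 6 did not pass the test (PER2, PER3, CRY1, CRY2, NR1D1 and DBP). The share called, 4 of 10, lay below the 51.6% of all 13266 genes that changed in this comparison (limma, adjusted p under 0.05 over all genes tested, on log2(TPM + 1)), with 30.4% of all genes higher and 21.2% lower, so the number of calls does not set the 10 genes apart. Only PER1 of the 10 changed at least 2-fold, as did 8.36% of all genes. The groups did not overlap in 4 of the 10, the same 4, and in 59.2% of all genes. The median log2 fold change of the 10 was -0.09 beside 0.06 over all genes, and the median size of the change was 0.27 beside 0.31. Higher genes made up 58.9% of all calls, and 48.1% under quantile normalization, where 1 clock gene was higher and 3 were lower. Without siNC replicate 3 or without siAHCYL1 replicate 1, the 4 calls became 2, PER1 and ARNTL.

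**Figure D1:**
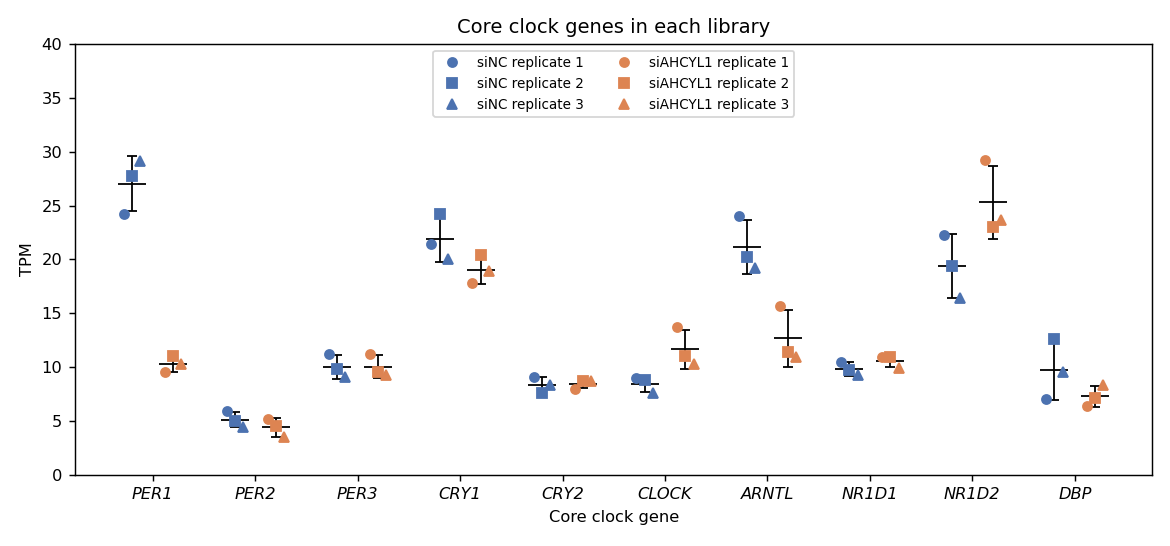
TPM of the 10 core clock genes in each library, with siNC in blue and siAHCYL1 in orange, the marker shape giving the replicate, and bars giving the mean ± SD (n = 3). PER1 and ARNTL are lower in all 3 siAHCYL1 libraries than in any siNC library, and CLOCK and NR1D2 are higher.

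**Figure D2:**
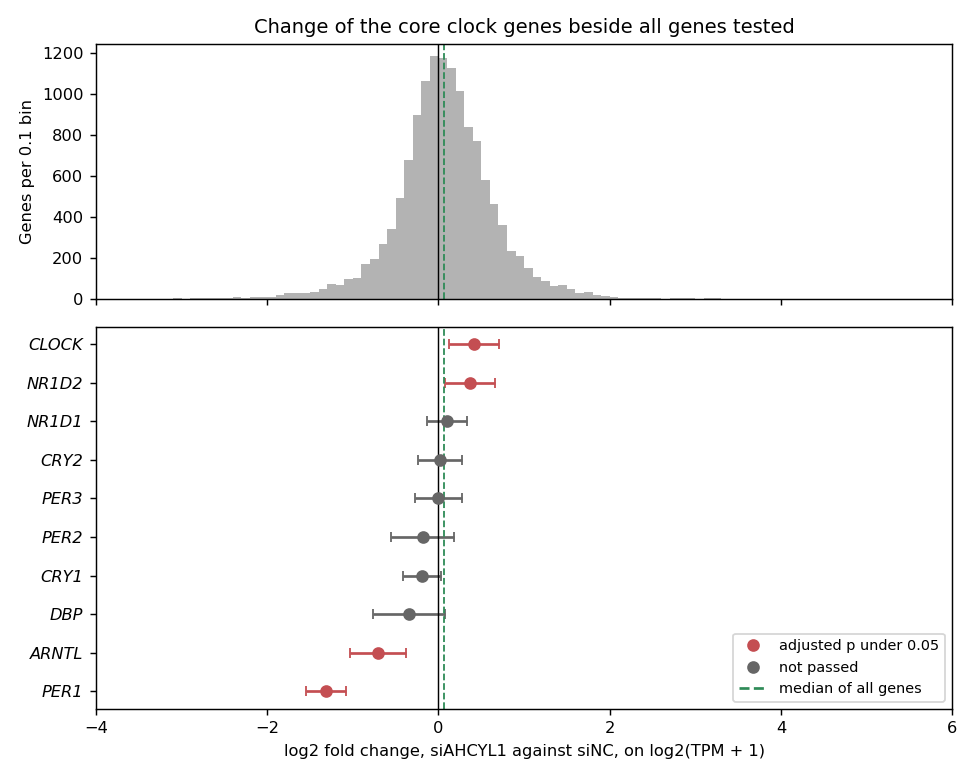
Top, the number of genes per bin of 0.1 log2 units for all 13266 genes tested; bottom, the log2 fold change of each core clock gene with its 95% confidence interval, on the log2(TPM + 1) scale. PER1 (-1.31) and ARNTL (-0.71) lie to the left, CLOCK (0.42) and NR1D2 (0.37) to the right, and the 6 others have intervals that include 0.

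The period genes encode the repressors that bind CRY proteins, and they did not move alike. PER1 lies on chromosome 17 (8140472 to 8156506, GRCh38, GENCODE release 29). It stood at 24.19, 27.76 and 29.17 TPM in siNC and at 9.53, 11.07 and 10.25 TPM in siAHCYL1. Every siAHCYL1 library was far below every siNC library, and means of 27.04 ± 2.57 and 10.28 ± 0.77 TPM (SD, n = 3) put siAHCYL1 at 38.0% of siNC. This log2 fold change of -1.31 (SE 0.10, 95% interval -1.55 to -1.08, limma adjusted p = 1.23e-05) ranked 233 among the falls of all genes tested. It passed under each of 14 alternative fits, with log2 fold changes from -1.40 to -1.26.

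PER2, on chromosome 2 (238244038 to 238290102), is the period gene with the lowest level. It had 5.90, 4.99 and 4.47 TPM in siNC and 5.20, 4.54 and 3.48 TPM in siAHCYL1. The groups overlapped, and the difference did not pass (log2 fold change -0.19, 95% interval -0.55 to 0.18, adjusted p = 0.364). PER3, on chromosome 1 (7784320 to 7845177), had 11.21, 9.83 and 9.05 TPM in siNC and 11.26, 9.54 and 9.29 TPM in siAHCYL1. Its means were both 10.03 TPM, and the interval of its log2 fold change ran from -0.27 to 0.27 (adjusted p = 0.999). The exons of PER3 share 868 bases with UTS2 on the other strand, a gene at 0.64, 3.37 and 1.22 TPM in siNC and listed at 0 in siAHCYL1, and libraries that do not keep strand cannot separate reads there.

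The difference between the period genes can be read within each library. The log2 ratio of PER1 to PER2 was 1.87, 2.26 and 2.46 in siNC and 0.76, 1.12 and 1.33 in siAHCYL1. The mean ratio dropped by 1.13 log2 units, from 2.20 ± 0.30 to 1.07 ± 0.29 (SD, n = 3), and the groups did not overlap (exact permutation p = 0.1, two-sided, the smallest possible; 0.133 adjusted over the 4 ratios tested). With 3 libraries against 3 no ratio can pass the 0.05 threshold.

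The cryptochrome genes, which encode the strongest repressors of the CLOCK and ARNTL pair, did not pass the test. CRY1, on chromosome 12 (106991364 to 107093829), had 21.46, 24.18 and 20.04 TPM in siNC and 17.79, 20.38 and 18.88 TPM in siAHCYL1. The siAHCYL1 values lay mostly lower, with 1 of the 3 above the lowest siNC value (log2 fold change -0.19, 95% interval -0.42 to 0.03, adjusted p = 0.136). Under quantile normalization CRY1 passed (-0.28, adjusted p = 0.0403; 0.0403 to 0.408 over the 14 alternatives). CRY2, on chromosome 11 (45847118 to 45883248), had 9.10, 7.55 and 8.38 TPM in siNC and 7.96, 8.73 and 8.71 TPM in siAHCYL1, with full overlap (log2 fold change 0.02, 95% interval -0.23 to 0.28, adjusted p = 0.89). The log2 ratio of CRY1 to CRY2 was 1.29 ± 0.23 in siNC and 1.08 ± 0.05 in siAHCYL1, with no overlap between the groups (exact permutation p = 0.1, adjusted 0.133). The difference of -0.21 rested largely on siNC replicate 2, whose ratio was 1.56 beside 1.15 and 1.17 in the other siNC libraries, and it was -0.080 without that library.

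The partners of the positive arm moved in opposite directions. CLOCK, a basic helix-loop-helix factor on chromosome 4 (55427903 to 55547138), had 8.95, 8.78 and 7.62 TPM in siNC and 13.72, 11.00 and 10.30 TPM in siAHCYL1. All 3 siAHCYL1 values were above all siNC values, and the mean rose from 8.45 ± 0.72 to 11.67 ± 1.81 TPM (SD, n = 3), a log2 fold change of 0.42 (95% interval 0.12 to 0.71, limma adjusted p = 0.0232). The highest siAHCYL1 value was that of replicate 1, and the call was lost without that library (0.30, adjusted p = 0.0574) and without siNC replicate 3 (0.35, adjusted p = 0.0749), with adjusted p from 0.0107 to 0.0749 over the 14 alternatives. The exons of CLOCK share 76 bases with TMEM165 on the other strand, which stood at 194 ± 5.77 TPM in siNC and rose to 230 ± 8.60 TPM, and its part in the CLOCK value was not tested.

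ARNTL, the partner of CLOCK, lies on chromosome 11 (13276652 to 13387266). It had 24.01, 20.19 and 19.21 TPM in siNC and 15.66, 11.40 and 10.91 TPM in siAHCYL1. The highest siAHCYL1 library stayed under the lowest siNC library, and the mean fell from 21.14 ± 2.54 to 12.66 ± 2.61 TPM, leaving 59.9% of the control, a log2 fold change of -0.71 (95% interval -1.03 to -0.38, adjusted p = 0.00292). The fall passed under each of 14 alternatives, with log2 fold changes from -0.86 to -0.62.

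Within each library, CLOCK moved closer to ARNTL. The log2 ratio of CLOCK to ARNTL was -1.33, -1.12 and -1.23 in siNC and -0.18, -0.05 and -0.08 in siAHCYL1. The siAHCYL1 libraries had nearly equal levels of the pair, while ARNTL was the higher of the pair in every siNC library. The ratio rose by 1.12 log2 units, from -1.22 ± 0.11 to -0.10 ± 0.07 (exact permutation p = 0.1, the smallest possible, adjusted 0.133).

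**Figure D3:**
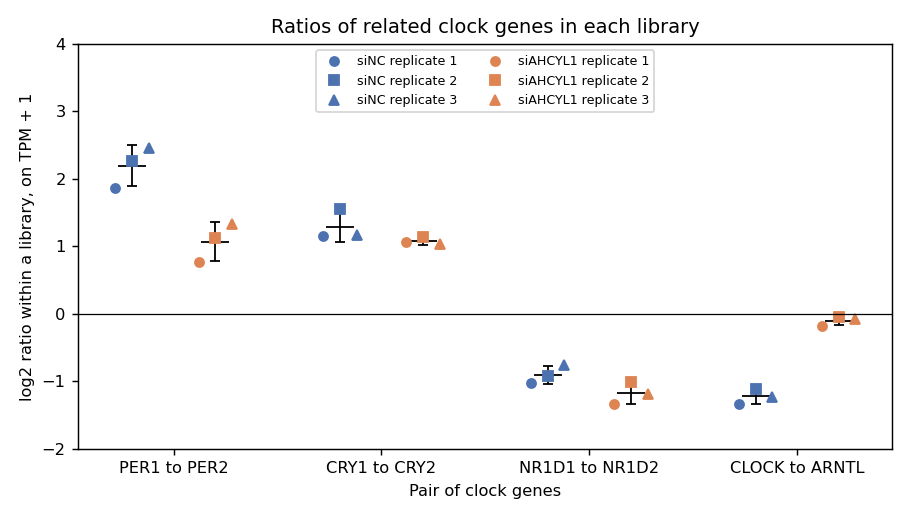
Log2 ratio of 2 related clock genes within each library, computed on TPM + 1, with siNC in blue, siAHCYL1 in orange and bars giving the mean ± SD (n = 3). The ratio of PER1 to PER2 is lower in siAHCYL1 (1.07 against 2.20) and that of CLOCK to ARNTL is higher (-0.10 against -1.22), while NR1D1 to NR1D2 overlaps between the groups.

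The nuclear receptors of the second loop, which repress ARNTL, gave 1 call, a rise of NR1D2. NR1D2, on chromosome 3 (23945260 to 23980618), had 22.30, 19.42 and 16.39 TPM in siNC and 29.21, 23.03 and 23.68 TPM in siAHCYL1. The lowest siAHCYL1 value was just above the highest siNC value, and the mean rose from 19.37 ± 2.96 to 25.31 ± 3.40 TPM, a log2 fold change of 0.37 (95% interval 0.08 to 0.67, adjusted p = 0.0386). This was the least stable of the 4 calls and was lost under 7 of 14 alternatives (adjusted p over all 14 from 0.00583 to 0.124). These were the fits without siNC replicate 2 (0.0859) or 3 (0.124), without siAHCYL1 replicate 1 (0.108) or 3 (0.0509), with no filter (0.0736), with quantile normalization (0.0605) and with robust moderation and no trend (0.0578). NKIRAS1, which overlaps NR1D2 on the other strand but shares no exonic base with it, fell from 11.47 ± 0.92 to 8.48 ± 0.64 TPM (adjusted p = 0.0146; 0.0547 without siNC replicate 2 and 0.0518 without siAHCYL1 replicate 3).

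NR1D1, on chromosome 17 (40092787 to 40100725), had 10.48, 9.76 and 9.23 TPM in siNC and 10.96, 10.96 and 9.87 TPM in siAHCYL1. The groups overlapped and the difference did not pass (log2 fold change 0.10, 95% interval -0.14 to 0.34, adjusted p = 0.453). NR1D1 shares 263 exonic bases with THRA, the thyroid hormone receptor alpha gene on the other strand, which stood at 31.3 ± 1.01 and 31.1 ± 0.78 TPM. The log2 ratio of NR1D1 to NR1D2 was -0.90 ± 0.13 in siNC and -1.18 ± 0.17 in siAHCYL1, and the groups overlapped (exact permutation p = 0.2, adjusted 0.2).

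DBP, a D-box activator on chromosome 19 (48630030 to 48637438), had the widest spread of the 10 among control libraries, relative to its mean. It had 7.04, 12.65 and 9.50 TPM in siNC and 6.41, 7.11 and 8.36 TPM in siAHCYL1. All 3 siAHCYL1 values lay within or under the siNC range, and the difference did not pass (log2 fold change -0.34, 95% interval -0.77 to 0.08, adjusted p = 0.153). Without siNC replicate 1, the lowest control, DBP passed (-0.54, adjusted p = 0.0241), as it did when replicate 1 was left out of each group (-0.46, adjusted p = 0.0446; 0.0241 to 0.499 over the 14 alternatives). DBP shares 661 exonic bases with SPHK2, a sphingosine kinase gene on the other strand, at 25.6 ± 2.20 and 28.7 ± 1.74 TPM.

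The order of levels among the 10 genes differed between the groups. In siNC, PER1 had the highest mean (27.04 TPM), followed by CRY1 (21.89), ARNTL (21.14) and NR1D2 (19.37), whose ranges overlapped one another. PER3, NR1D1, DBP, CLOCK and CRY2 formed a middle group from 10.03 to 8.34 TPM in which each neighbour in the order overlapped the next, and PER2 was lowest (5.12). In siAHCYL1, NR1D2 was first (25.31 TPM) and CRY1 next (19.02), with no overlap between them. ARNTL (12.66), CLOCK (11.67), NR1D1 (10.60), PER1 (10.28) and PER3 (10.03) followed with overlapping neighbours, then CRY2 (8.47), DBP (7.29) and PER2 (4.41). PER1 thus went from rank 1 to rank 6, at a level that overlapped that of PER3. The summed level of the 10 genes was 133 to 145 TPM in siNC and 114 to 128 TPM in siAHCYL1. In the control, the genes lay between percentile 19.5 (PER2) and 54.9 (PER1) of all genes tested.

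Paralogs and other factors of the loops showed changes in both directions. Of 13 such genes, 10 were tested, of which 3 rose and 2 fell (median log2 fold change 0.13, against 0.06 over all genes, and 5 of 10 called against 51.6%). ARNTL2, which can stand in for ARNTL as a partner of CLOCK, had 11.06, 11.41 and 10.86 TPM in siNC and 21.50, 20.57 and 21.12 TPM in siAHCYL1. Every siAHCYL1 value lay clear of the siNC values, opposite to ARNTL, and the log2 fold change of ARNTL2 was 0.87 (limma adjusted p = 4.73e-05). ARNTL made up 65.4% ± 2.64 of the summed TPM of the pair in siNC and 37.3% ± 4.28 in siAHCYL1 (SD, n = 3), while that sum was 32.25 ± 2.56 and 33.72 ± 2.98 TPM. The sum was formed after the values were seen and was not tested. NPAS2, the paralog of CLOCK, rose with it, from 18.96 ± 2.40 to 25.71 ± 0.96 TPM (log2 fold change 0.43, adjusted p = 0.00682).

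RORA and RORB, activators that share their element with the NR1D proteins, were both lower in siAHCYL1. RORB fell from 11.28 ± 1.10 to 6.75 ± 0.70 TPM (log2 fold change -0.66, adjusted p = 0.00157). RORA was at 3.60, 3.61 and 3.70 TPM in siNC and at 2.69, 2.28 and 2.26 TPM in siAHCYL1, and fell (log2 fold change -0.45, adjusted p = 0.0226). The RORA call was lost without any 1 of siNC replicates 1 to 3 or siAHCYL1 replicates 2 and 3 (adjusted p from 0.0544 to 0.0769; 0.00347 to 0.0769 over the 13 alternatives that tested it). Of the genes with a ROR element core in the window searched, ARNTL fell and CRY2 did not pass.

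TEF, a D-box activator of the DBP family, rose from 6.85 ± 0.09 to 12.22 ± 0.47 TPM (log2 fold change 0.75, adjusted p = 0.000253), while DBP did not pass and HLF, the other member of that family, was under 0.1 TPM throughout. NFIL3, which represses at D-boxes, had 82.4 ± 11.6 and 99.7 ± 9.79 TPM and did not pass (0.28, adjusted p = 0.0614). BHLHE40, an E-box repressor, had 138 ± 1.00 and 151 ± 1.88 TPM and did not pass (0.13, adjusted p = 0.0726), and BHLHE41 was under 1 TPM. CIART, a repressor of CLOCK and ARNTL, had 2.62 ± 0.83 and 1.79 ± 0.48 TPM (adjusted p = 0.182). TIMELESS (62.6 ± 4.91 and 64.7 ± 2.00 TPM) and TIPIN (16.5 ± 2.16 and 18.3 ± 3.01 TPM), which act at replication forks, did not pass either. RORA, HLF, NFIL3, BHLHE40, BHLHE41, CIART, TIMELESS and TIPIN fall outside the naming rule and are given to describe the list more fully.

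**Figure D4:**
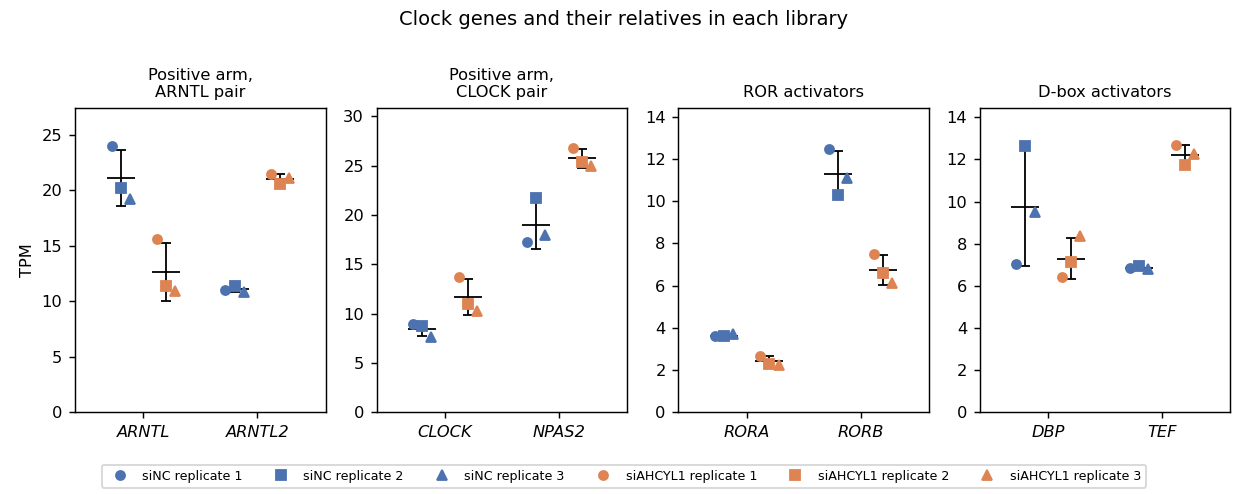
TPM in each library of 4 pairs of related clock genes, with siNC in blue, siAHCYL1 in orange and bars giving the mean ± SD (n = 3); each panel has its own vertical scale from 0. ARNTL (21.14 to 12.66) and ARNTL2 (11.11 to 21.06) move in opposite directions, CLOCK and NPAS2 are both higher in siAHCYL1, RORA and RORB are both lower, and TEF is higher while DBP overlaps.

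Genes that act on clock proteins also went both ways. Of 21 tested kinases, ubiquitin ligases and stability factors, 8 rose and 7 fell (71.4% called, against 51.6% of all genes; median log2 fold change 0.04). PRKAA1, a catalytic subunit of the AMP-activated kinase that marks CRY proteins for degradation, fell from 31.3 ± 2.31 to 18.2 ± 2.13 TPM (-0.75, adjusted p = 0.000306). PRKAA2, the other catalytic subunit, which the naming rule does not take, rose from 4.96 ± 0.62 to 8.16 ± 0.78 TPM (0.62, adjusted p = 0.00361). SIRT1, a deacetylase that acts on ARNTL and PER2, fell from 35.8 ± 4.38 to 23.7 ± 1.43 TPM (-0.57). CSNK1D, a casein kinase that phosphorylates PER proteins, rose from 103 ± 6.84 to 128 ± 2.43 TPM (0.32), and SIAH2, a ubiquitin ligase, rose from 31.8 ± 2.51 to 48.9 ± 2.52 TPM (0.61). Of 17 co-regulators, 4 rose and 1 fell (29.4% called, against 51.6% of all genes; median 0.07), and 12 did not pass. HDAC1, a histone deacetylase, rose from 237 ± 5.73 to 378 ± 12.8 TPM (0.68, adjusted p = 1.60e-05). PPARGC1A, a coactivator of the ROR receptors, rose from 11.1 ± 0.75 to 18.5 ± 2.70 TPM (0.69). DDX5, an RNA helicase, rose (0.24), and TBL1XR1, part of the corepressor complex that the NR1D proteins recruit, fell (-0.46).

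Among genes often described as clock outputs, more fell than rose. Of 14 tested, 6 fell and 4 rose (71.4% called, against 51.6% of all genes, where rises were more frequent; median log2 fold change -0.16). NAMPT, the rate-limiting enzyme of NAD salvage and an E-box target, fell from 442 ± 15.2 to 259 ± 28.7 TPM (-0.78, adjusted p = 5.55e-05). POR, the cytochrome P450 reductase, fell from 490 ± 18.8 to 317 ± 14.7 TPM (-0.63), and ALAS1, the first enzyme of heme synthesis, fell from 67.3 ± 4.98 to 45.0 ± 4.19 TPM (-0.57). PPARA, a nuclear receptor of fatty acid metabolism, rose from 5.42 ± 0.44 to 16.7 ± 1.97 TPM (1.46, adjusted p = 1.47e-05).

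Because PER1 is a known early target of CREB, the genes of that input are given beside it. Of 15 cyclic AMP and CREB input genes, 4 rose and 2 fell (40% called, against 51.6% of all genes; median log2 fold change 0.00). PRKAR1A, a regulatory subunit that holds protein kinase A inactive, rose from 830 ± 40.1 to 1376 ± 45.1 TPM (0.73, adjusted p = 1.39e-05). CRTC1, a CREB coactivator, rose from 6.52 ± 0.60 to 13.00 ± 0.13 TPM (0.90). ATF1, a CREB relative, fell from 17.3 ± 1.06 to 10.3 ± 2.17 TPM (-0.71). CREB1 itself, which the naming rule does not take, rose from 8.94 ± 1.10 to 11.4 ± 0.44 TPM (0.32, limma adjusted p = 0.0410). SIK1, a kinase that is itself induced by CREB and restrains CRTC coactivators, fell from 99.7 ± 2.87 to 69.7 ± 2.96 TPM (-0.51, adjusted p = 0.000187).

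Of 14 immediate targets of CREB and serum response, 12 were tested, of which 5 rose and 5 fell (83.3% called, against 51.6% of all genes; median log2 fold change 0.02). Those that fell with PER1 were SIK1, DUSP1, a MAP kinase phosphatase (-0.51), and the orphan nuclear receptors NR4A1 (-0.50), NR4A2 (-0.92) and NR4A3 (-0.85). NR4A1 stood at 152.39, 151.02 and 149.42 TPM in siNC and at 108.50, 106.35 and 104.77 TPM in siAHCYL1. Those that rose were FOS (39.6 ± 2.73 to 68.2 ± 5.53 TPM, 0.77), IER2 (0.76), CREM (0.45) and the early growth response factors EGR1 (6.37 ± 1.99 to 22.9 ± 1.43 TPM, 1.73) and EGR3 (1.53). JUNB (-0.01) and ATF3 (0.04) did not pass, and FOSB and EGR2 stayed under the filter. DUSP1, NR4A2, NR4A3, IER2, CREM, JUNB, ATF3, FOSB and EGR2 are named here to complete the list.

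**Figure D5:**
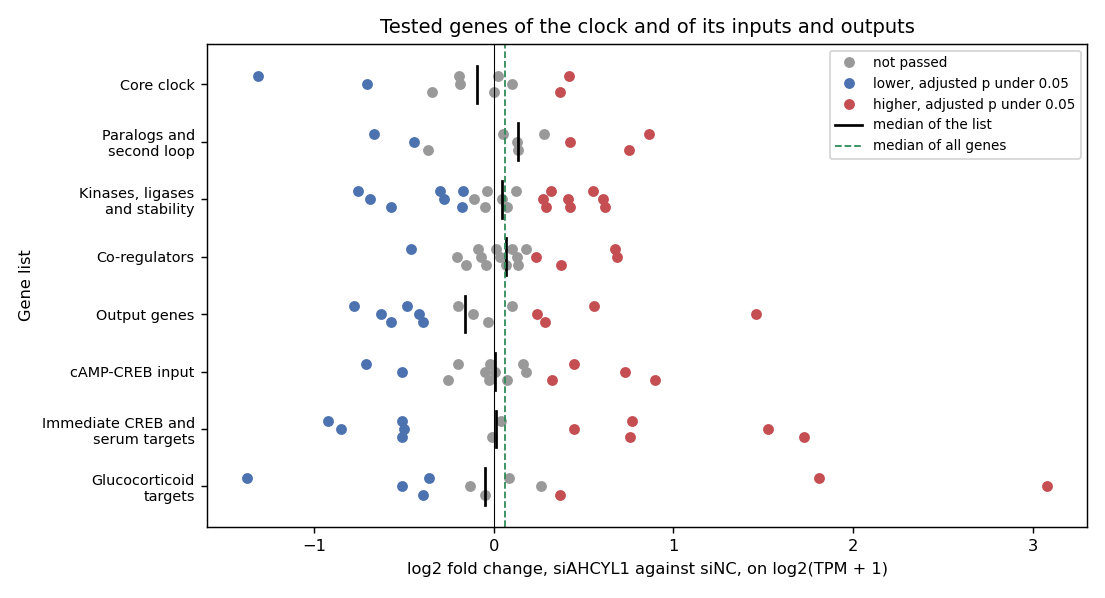
Log2 fold change, on the log2(TPM + 1) scale, of every tested gene in 8 lists of clock genes, their relatives, inputs and outputs, with genes that passed the test in red (higher) or blue (lower), the list median as a black line and the median of all genes as a dashed line. Each list holds genes on both sides of 0, and the list medians lie between -0.16 and 0.13.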

How the data were processed

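The 6 RNA libraries were deposited as 1 table of TPM values, 1 column per library. Per the submitters' processing notes the authors used STAR, RSEM and the GRCh38 build. The sources used here do not give versions or the gene annotation. Library preparation was non-directional, per the labels' protocols. The columns with the prefix si were assigned to siAHCYL1 because only 1 other group exists. Depth is unknown, so no counting interval was computed.

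Here log2(TPM + 1) was fitted with limma 3.58.1 in R 4.3.3. The fit was group only, with intensity trend, two-sided and Benjamini-Hochberg over 13266 genes, and a gene changed at adjusted p under 0.05. It was also run on simulated data with few changed genes and independent noise. That setting differs from these data, so the run is no check of the calls here. Fold changes on this scale understate the change of low genes. The 4 within-library ratios were compared by exact permutation. The clock genes and all lists were chosen from textbook knowledge, with earlier results of these data known. All 10 clock genes were named, and from each other list up to 4 changed genes, smallest adjusted p first, and the one most against its list. For the clock gene with the smallest adjusted p, the 3 genes with the closest profile were named. A few more were named after their values were seen, to describe a list, an overlap or a marker. Some genes that the rule or lists take are not reported here. The alternatives were quantile normalization, median-of-ratios scaling, a minimum of 5 TPM or none, a pseudocount of 0.1, a replicate block, robust moderation without trend, each library left out in turn, and replicate 1 of both groups left out. Gene positions are from GENCODE release 29.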

Additional observations from a re-analysis of the deposited data

How the results depend on the processing

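The count of changed clock genes was 4, and leaving out single libraries gave from 2 to 5. AHCYL1 kept its direction and call, and the total of 6844 changed genes stayed within 1.5 times, under every alternative run. The 4 ratios kept their direction, and since their p cannot reach the threshold, no call of theirs could change. CRY2 (main value 0.02) changed sign, without passing, under median-of-ratios scaling (-0.040), quantile normalization (-0.073) and without siNC replicate 2 (-0.041), within a span of -0.041 to 0.079 over single libraries left out. PER3, whose main value was near 0, changed sign without passing under median-of-ratios scaling (-0.063), quantile normalization (-0.076), without siNC replicate 2 (-0.011) or 3 (-0.065), without siAHCYL1 replicate 1 (-0.078; span to 0.076 over single libraries left out) and without replicate 1 of both groups (-0.0026). The cause was not tested. PER2, PDK4, COL1A1, KRT8, PCDH19, RORA and CIART were not tested at 5 TPM. DCT, COL1A1 and PCDH19 were under the filter, and so not tested, when any single siNC library was left out. The ratios were not run under other filters, the block or other moderation, which do not enter them. The deviations of libraries with the same number correlated at 0.233, 0.00092 and 0.154 across genes, so the numbers are not shown to pair the samples. With the replicate block 4 clock genes and 7919 genes in all changed. TYRP1, PMEL, CREB1, KLF9, TSC22D3, ERRFI1, NR3C1, FKBP5, SGK1 and ANGPTL4 were not followed over the alternatives. Among refits of AHCYL1 and the other tested genes that the rule or the text takes, 875 kept direction and call. In 16 the call was lost, all of KRT18, KRT8, KDR, RORA or NKIRAS1. A further 5 gained one, BHLHE40 with no filter and with the block, and NFIL3 with the block, without siNC replicate 1 and without replicate 1 of both groups. The other 13 changed sign without passing. They were ATF3 under median-of-ratios scaling (-0.024), quantile normalization (-0.033) and without siNC replicate 2 (-0.018; up to 0.075 over single libraries left out), TIMELESS under those 2 scalings (-0.018 and -0.047), JUNB over single libraries left out (-0.071 to 0.075) and without replicate 1 of both groups (0.014), and THRA in the same way (-0.034 to 0.0080, and 0.011). With the depth unknown, its limit on low genes was not set.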

Other observations

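PER1 is also a known glucocorticoid target, and other genes of that response moved both ways. Of 12 listed, 11 were tested, of which 3 rose and 4 fell (63.6% called, against 51.6% of all genes tested; median log2 fold change -0.05, against 0.06). CEBPD, a transcription factor, rose from 9.97 ± 3.47 to 89.5 ± 14.9 TPM (SD, n = 3; log2 fold change 3.08, limma adjusted p = 5.56e-06). MT2A, a metallothionein that metals also induce, rose from 265 ± 20.8 to 934 ± 115 TPM (1.81). PDK4, a pyruvate dehydrogenase kinase, fell from 5.20 ± 1.08 to 1.42 ± 0.56 TPM (-1.37), and DUSP1 fell from 61.8 ± 2.83 to 43.0 ± 1.85 TPM (-0.51). KLF9 (-0.39) and TSC22D3 (-0.36, limma adjusted p = 0.0481) also fell, and ERRFI1 rose (0.37). The receptor gene NR3C1 (0.26, limma adjusted p = 0.0738), FKBP5 (-0.05, 0.621), SGK1 (-0.13, 0.105) and ANGPTL4 (0.09, 0.684) did not pass. They are named to complete the list.

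The 3 genes whose centred log2(TPM + 1) profile over the 6 libraries lay closest to that of PER1, among 13265 others, were PCDH19 (Euclidean distance 0.13), ELMOD1 (0.16) and PCDH20 (0.19). PCDH19 and PCDH20 encode protocadherins, which are cell adhesion proteins. PCDH20 had 7.92, 8.45 and 8.81 TPM in siNC and 2.35, 2.96 and 3.18 TPM in siAHCYL1. PCDH19 was at 1.82 ± 0.17 and 0.15 ± 0.05 TPM, and ELMOD1 at 6.15 ± 0.41 and 1.75 ± 0.13 TPM. The likeness of PCDH19 depended on the pseudocount, since its level in siAHCYL1 was under 1 TPM. With a pseudocount of 0.1 the log2 fold change was -2.97 for PCDH19, -1.75 for ELMOD1 and -1.54 for PCDH20, beside -1.38 for PER1, and PCDH19 passed the filter on low values through the siNC libraries alone.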
